A study of Neurospora crassa with 22 samples.

Results

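Conidia are the asexual spores of *Neurospora crassa*, a filamentous fungus, and conidiation is the program by which aerial hyphae make them. The program runs from regulators that commit a hypha to spore formation to the proteins that coat and fill the finished spore, and a conidium that is wetted and fed leaves this state and germinates into a growing hypha. 5 genes of this program were examined in germinating conidia with and without the linker histone H1. They were chosen by name, with a rule that used no measured value, and are 5 of the 9730 genes of the expression table: *fl* (NCU08726), which encodes the fluffy zinc cluster regulator needed for conidiophore development; *acon-3* (NCU07617), which encodes a regulator of the developing conidiophore related to medA of *Aspergillus nidulans*; *eas* (NCU08457), which encodes the hydrophobin of the water-repellent rodlet layer on the spore surface and is also known as a clock-controlled and light-induced gene; and *con-6* (NCU08769) and *con-10* (NCU07325), whose small proteins accumulate as conidia form. Earlier results of these data were known when the 5 genes were chosen. Each of the 5 genes has 1 annotated transcript.

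The series examined histone H1 of *N. crassa* with several sequencing assays. It holds 22 samples, of which 6 are the RNA-seq libraries used here, 3 of the *hH1* mutant and 3 of the wild type. In both strains conidia were grown for 5 hr in minimal medium, ribosomal RNA was removed from total RNA, and stranded libraries were sequenced. Levels are given in FPKM, fragments per kilobase of transcript scaled to the size of the library, which allows genes of different length to be compared. The labels name the genotypes only as hH1 and wildtype, and neither the allele nor the mating type of the strains behind these libraries is given in the sources used here. The labels call the material mycelium, although it came from conidia 5 hr after inoculation. The libraries are numbered 1 to 3 within a strain by their columns, and these numbers pair nothing. The study speaks of biological replicate experiments without saying which libraries came from separate cultures, so p-values measure only the spread between these libraries, which may be technical. In such bulk RNA, fewer cells that use a gene and less RNA per cell cannot be told apart.

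The targeted gene matched the labels: *hH1* itself was at 9.35, 2.06 and 3.23 FPKM in the *hH1* libraries, against 266, 327 and 293 FPKM in the wild-type libraries. The files hold no read totals, but the steps between low values gave them back as far as the scaling allows, at an estimated 5760000 to 11270000 fragments per library if each was scaled to its own total. The number of genes at 0 was 2185 in *hH1* library 1 and between 1577 and 1712 in the other 5 libraries, so that *hH1* library 1 stood apart. Across the table, 7208 genes had a mean of at least 1 FPKM and were tested with limma on log2(FPKM + 1), and 360 of them (4.99%) passed an adjusted p of 0.05, 125 (1.73%) higher and 235 (3.26%) lower in *hH1*. This count was 45 with transcripts on their own, and fell to 52 without wild-type library 1 and to between 111 and 231 without wild-type library 2 or 1 of the *hH1* libraries. The library values of the strains did not overlap in 2325 of the tested genes (32.3%). The median log2 change over all tested genes was -0.095. Genes of mating type also moved with the strain: *matA-1* (NCU01958), a gene of mating type *A*, was at 2.60, 1.75 and 3.83 FPKM in the *hH1* libraries, while each of the 3 wild-type libraries listed it at 0, and *mfa-1*, given below, was far lower in *hH1*. In all comparisons of these strains, the *hH1* genotype and a difference of mating type cannot be told apart.

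*fl*, *acon-3* and *eas* passed the filter of 1 FPKM and were tested with limma, while *con-6* and *con-10* fell below the filter. None of the 3 tested genes was called as different in the *hH1* mutant, beside 4.99% of all tested genes. Likewise 0 of the 3 were at an unadjusted p under 0.05, beside 25.9% of all tested genes. In none of the 3 did the library values of the strains stand clear of each other, beside 32.3% of all tested genes. Nor did they in *con-6* and *con-10*, which are outside the tested genes. With so few genes, these counts do not set the 5 apart from other genes. In FPKM, the widest spread belonged to *eas*, which was below the wild-type libraries in *hH1* library 1 and above them in the other *hH1* libraries. The 3 tested genes were at low levels, below the middle of all genes in every library except for *eas* in *hH1* libraries 2 and 3, and the transcripts of *con-6* and *con-10* were near the limit of detection.

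**Figure D1:**
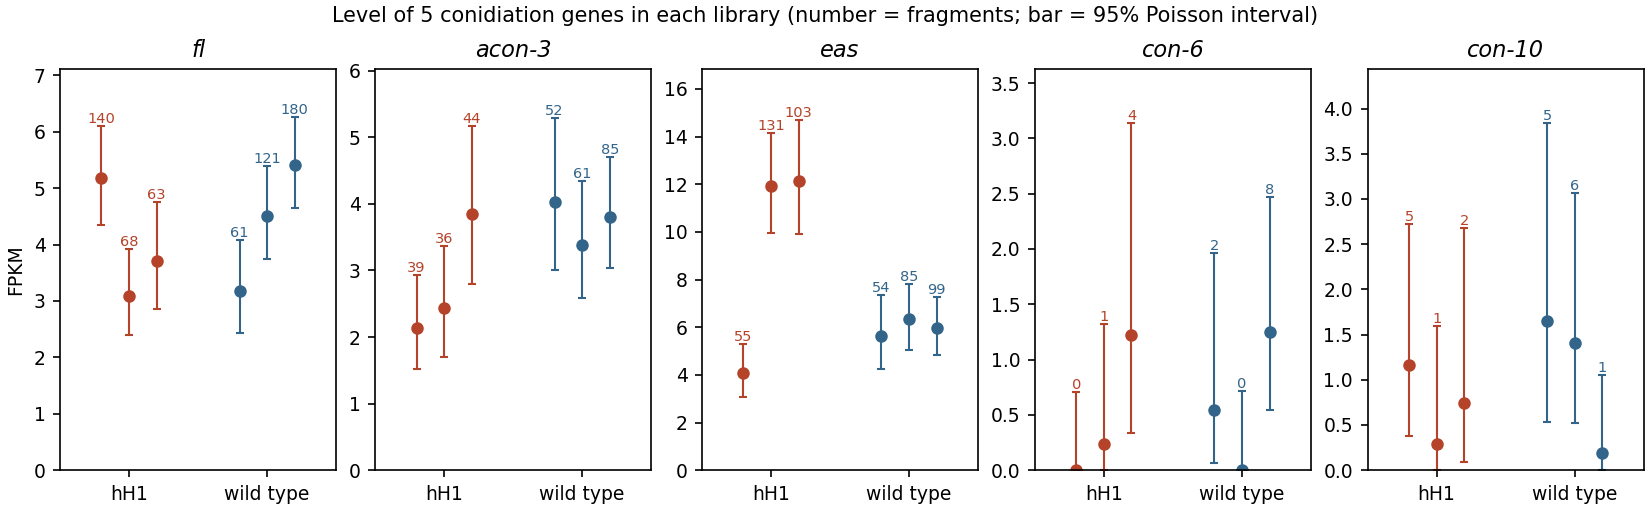
FPKM of the 5 conidiation genes in each *hH1* library (left, red) and each wild-type library (right, blue), in order of library number, with a scale of its own for each gene. The number above each point is the fragments recovered from the FPKM value and the bar is the exact 95% Poisson interval, which covers counting error only; *eas* stood at 11.9 and 12.1 FPKM in *hH1* libraries 2 and 3 and between 4.06 and 6.33 FPKM in the other 4 libraries.

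*fl* lies on linkage group II of assembly NC12, at II:3805777-3809265. It was at 5.17, 3.09 and 3.71 FPKM in the *hH1* libraries, against 3.18, 4.51 and 5.42 FPKM in the wild-type libraries. Both strains had high and low libraries, and their ranges covered each other almost entirely. The mean was 3.99 ± 1.07 FPKM in *hH1* and 4.37 ± 1.12 FPKM in the wild type (SD, n = 3 each). The fitted log2 change was -0.10 (SE 0.25, 95% interval -0.65 to 0.44, limma adjusted p = 0.809), a fold of 0.93 with an interval of 0.636 to 1.36 on the scale of FPKM + 1. The sign of this small value turned with the scaling, to 4e-04 when each library was centred on its median and to 0.045 after quantile normalization.

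The variation of *fl* within a strain was larger than counting error alone. Its values rested on 140, 68 and 63 fragments in the *hH1* libraries and on 61, 121 and 180 fragments in the wild-type libraries. The counting interval of *hH1* library 1 ran from 4.35 to 6.11 FPKM and that of *hH1* library 2 from 2.40 to 3.92 FPKM, and these intervals did not meet. In the wild type, the interval of library 3, 4.66 to 6.27 FPKM, likewise lay clear of that of library 1, 2.44 to 4.09 FPKM.

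The gene whose pattern over the 6 libraries was most like that of *fl* was *con-8* (NCU09235), another gene induced in conidiation. Among the 7207 other tested genes, *con-8* had the highest Pearson correlation of log2(FPKM + 1) with *fl*, 0.996 over 6 libraries. *con-8* was at 9.58, 3.35 and 4.62 FPKM in the *hH1* libraries, against 3.48, 6.65 and 9.31 FPKM in the wild-type libraries. The libraries with most *fl*, *hH1* library 1 and wild-type library 3, were also those with most *con-8*, and the order of the other 4 libraries was the same for both genes. The next gene was NCU07349, with a correlation of 0.990 and a level of 0.730 to 2.18 FPKM, and 32 genes reached 0.9 or more. These are descriptions over 6 points that share their libraries, strains and depths. The relative depth of the libraries moved with both genes, with a correlation of 0.839 for *fl* and 0.823 for *con-8*, and 1.54% of all tested genes were as closely tied to depth as *fl*. Its part in the pattern was not tested.

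**Figure D2:**
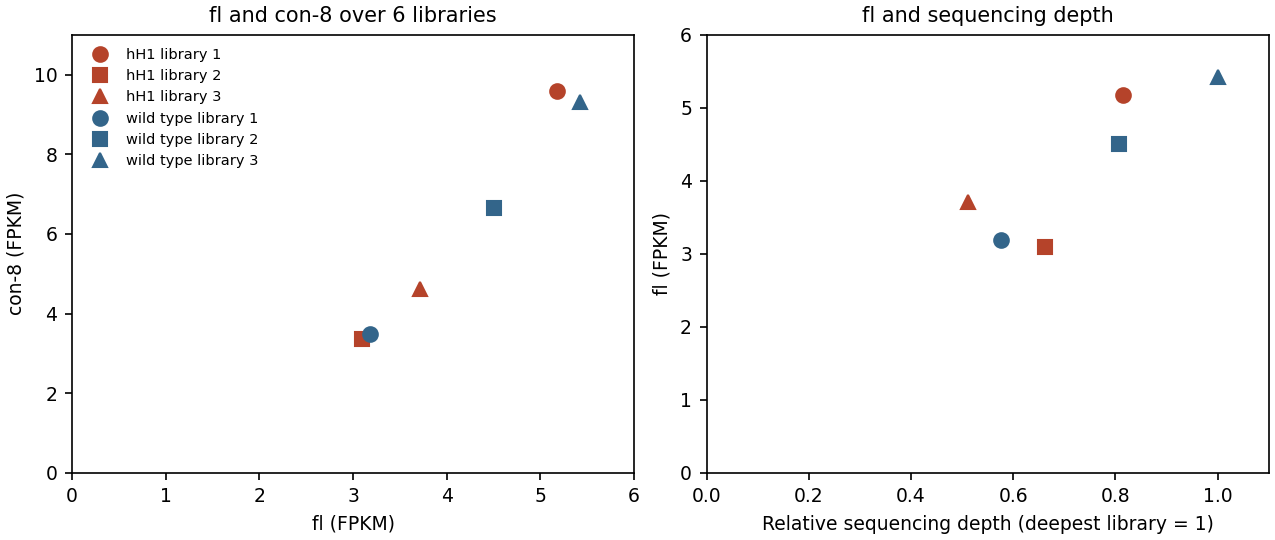
Left, FPKM of *con-8* against FPKM of *fl*; right, FPKM of *fl* against the sequencing depth of each library relative to the deepest, wild-type library 3. Red symbols are the *hH1* libraries and blue symbols the wild-type libraries; *hH1* library 1 (5.17 FPKM of *fl*, 9.58 of *con-8*) and wild-type library 3 (5.42 and 9.31) sit together at the upper end.

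*acon-3*, at IV:271905-274263, was at 2.14, 2.43 and 3.85 FPKM in the *hH1* libraries, against 4.03, 3.38 and 3.80 FPKM in the wild-type libraries. *hH1* libraries 1 and 2 lay below all wild-type libraries, and *hH1* library 3 lay among them. The mean was 2.81 ± 0.914 FPKM in *hH1* and 3.74 ± 0.332 FPKM in the wild type (SD, n = 3 each). The log2 change was -0.34 (SE 0.24, 95% interval -0.88 to 0.20, limma adjusted p = 0.390). On the scale of FPKM + 1 this was a fold of 0.791 with an interval of 0.545 to 1.15. The values came from 39, 36 and 44 fragments in the *hH1* libraries and from 52, 61 and 85 fragments in the wild-type libraries. The counting intervals of the highest and lowest *hH1* libraries, 2.80 to 5.17 and 1.52 to 2.93 FPKM, still met, unlike those of *fl*.

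The gene most like *acon-3* over the libraries was NCU08599, with a correlation of 0.981 and a level of 11.6 to 16.1 FPKM over the 6 libraries. As many as 170 genes had a correlation of 0.9 or more with *acon-3*. Depth was hardly related to *acon-3* (correlation -0.17, a size reached by 65.5% of tested genes). The correlation of *fl* with *acon-3* over the 6 libraries was -0.13.

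*eas*, at II:3570905-3572798, was at 4.06, 11.9 and 12.1 FPKM in the *hH1* libraries, against 5.64, 6.33 and 5.96 FPKM in the wild-type libraries. The wild-type libraries lay close together, *hH1* libraries 2 and 3 lay above all of them, and *hH1* library 1 lay below all of them. The mean was 9.37 ± 4.60 FPKM in *hH1* and 5.98 ± 0.349 FPKM in the wild type (SD, n = 3 each). The log2 change was 0.45 (SE 0.33, 95% interval -0.28 to 1.17, limma adjusted p = 0.398). On the scale of FPKM + 1 this was a fold of 1.36 with an interval of 0.826 to 2.25.

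This result turned on *hH1* library 1. Without it, the *hH1* and wild-type libraries did not overlap and *eas* was called higher in *hH1*, by 0.90 on the log2 scale (SE 0.17, 95% interval 0.53 to 1.27, limma adjusted p = 0.0285). It was called in this 1 of 15 alternative fits, and the adjusted p over all 15 ran from 0.0285 to 0.729. Counting error did not bridge the gap: *hH1* library 1 held 55 *eas* fragments with an interval of 3.06 to 5.29 FPKM, while libraries 2 and 3 held 131 and 103 fragments with intervals of 9.96 to 14.1 and 9.90 to 14.7 FPKM. The 54, 85 and 99 fragments of the wild-type libraries gave intervals within 4.23 to 7.83 FPKM. *hH1* library 1 was also the library with the most genes at 0, 2185 as given above, and the part of that in the *eas* result was not tested.

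The pattern of *eas* over the libraries was most like that of NCU09251 (correlation 0.989) and NCU11012 (0.980). NCU09251 was at 65.0, 98.9 and 93.3 FPKM in the *hH1* libraries, against 73.1, 73.7 and 73.1 FPKM in the wild-type libraries. NCU11012 was at 38.9, 62.1 and 58.6 FPKM in the *hH1* libraries, against 46.9, 48.6 and 45.1 FPKM in the wild-type libraries. In both genes, as in *eas*, *hH1* library 1 was the lowest of the 6 and *hH1* libraries 2 and 3 the highest, and 59 genes had a correlation of 0.9 or more. The correlation of *eas* with depth was -0.56, a size reached by 14.4% of tested genes, with *fl* it was -0.62 and with *acon-3* 0.13.

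*con-6*, at III:5205042-5205927, was listed at 0, 0.237 and 1.23 FPKM in the *hH1* libraries, against 0.543, 0 and 1.25 FPKM in the wild-type libraries. These values stood for 0, 1 and 4 fragments in the *hH1* libraries and for 2, 0 and 8 fragments in the wild-type libraries. Each strain had 1 library at 0 and 1 library above 1 FPKM. A count of 0 allowed up to 0.577 FPKM in *hH1* library 1 and up to 0.582 FPKM in wild-type library 2, taken as 3 fragments. A 0 in such a table can also be a failed estimate. No difference between the strains was detectable at this depth.

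*con-10*, at IV:4364944-4365763, was at 1.16, 0.287 and 0.743 FPKM in the *hH1* libraries, against 1.65, 1.41 and 0.190 FPKM in the wild-type libraries. The lowest and the highest value were both from the wild type. The 5, 1 and 2 fragments of the *hH1* libraries added up to 8, and the 5, 6 and 1 fragments of the wild-type libraries to 12. The mean was 0.731 ± 0.439 FPKM in *hH1* and 1.08 ± 0.781 FPKM in the wild type (SD, n = 3 each). The 5 fragments of *hH1* library 1, for example, gave an interval of 0.378 to 2.72 FPKM, and a strain difference was not detectable at this depth. When the filter on low values was dropped, the limma adjusted p was 0.878 for *con-6* and 0.727 for *con-10*, and neither was called.

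Set in order of level, the genes ran *eas*, *fl*, *acon-3*, *con-10*, *con-6* in both strains by their means. In *hH1*, neighbours in this order overlapped in their library values except *acon-3* and *con-10*, where the lowest *acon-3* value was 2.14 FPKM and the highest *con-10* value 1.16 FPKM. In the wild type, *acon-3* and *con-10* were likewise apart, at 3.38 and 1.65 FPKM, and *eas* and *fl* narrowly so, with 5.64 FPKM the lowest *eas* value and 5.42 FPKM the highest *fl* value. *fl* and *acon-3*, and *con-10* and *con-6*, could not be ranked in either strain.

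Against all genes of the same library, *fl* had a higher FPKM than 34.9% to 42.8% of genes and *acon-3* than 32.7% to 37.4% of genes over the 6 libraries. *eas* lay above 39.4% to 57.9% of genes. *con-10* lay above 18.4% to 29.4% of genes and *con-6*, with the widest range, above 0.0% to 27.6%. The middle gene of a library was at 7.86 to 8.76 FPKM in *hH1* and at 8.87 to 9.45 FPKM in the wild type, so that only the 2 *eas* values of *hH1* libraries 2 and 3 exceeded it.

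**Figure D3:**
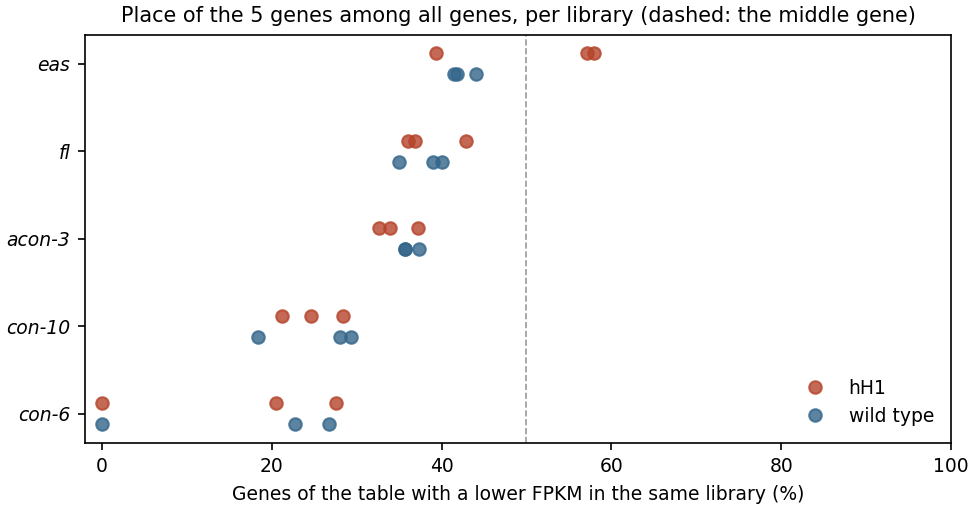
Share of the 9730 genes with a lower FPKM than each conidiation gene in the same library, in percent, for the *hH1* libraries (red, upper row of each gene) and the wild-type libraries (blue, lower row). Of all points, only *eas* in *hH1* libraries 2 and 3 lies to the right of the dashed line at the middle gene.

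Further genes of the program were taken from lists of names. Of 5 genes for conidium products or conidial separation, 4 were matched: *con-8*, *con-13*, *csp-1* and *csp-2*. *con-13*, the neighbour of *con-10* on linkage group IV (IV:4367319-4368460), was listed at 0 in all 6 libraries. *csp-2*, which encodes a grainyhead-type transcription factor needed for conidia to separate, was the highest of the list, at 29.4 ± 2.19 FPKM in *hH1* and 33.2 ± 5.50 FPKM in the wild type (SD, n = 3 each). The 3 tested genes gave 0 calls with limma in either direction, beside 4.99% of all tested genes. Of the 3, 0 were at an unadjusted p under 0.05 (beside 25.9% of all tested genes) and 0 had strains apart (beside 32.3%). With only 3 genes, these counts do not set the list apart. Their median log2 change was -0.16, beside -0.095 over all tested genes.

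Of 13 regulators of conidiation, 12 were matched and tested with limma, 0 were called (beside 4.99% of all tested genes) and 3 were at an unadjusted p under 0.05, which is 25.0% of them, beside 25.9% of all tested genes. Of the 12, 11 had a negative and 1 a positive log2 change, with a median of -0.26, but after the trend of the changes with gene length was removed 6 were positive and the median was -0.024. In 6 of the 12 the library values of the strains did not overlap, beside 32.3% of all tested genes. *rco-1*, which encodes a Tup1-type corepressor, was the highest, at 112 ± 3.06 FPKM in *hH1* and 125 ± 5.05 FPKM in the wild type (SD, n = 3 each). The positive one was *rca-1*, the counterpart of flbD of *A. nidulans*, at 12.9, 18.6 and 17.1 FPKM in the *hH1* libraries, against 8.88, 11.3 and 11.2 FPKM in the wild-type libraries. All *hH1* libraries were above all wild-type libraries, yet its log2 change of 0.58 (SE 0.18) did not pass the test (limma adjusted p = 0.0823). Over 14 alternative fits its adjusted p ran from 0.0415 to 0.257, and it was called in 3 of them, among them the fit without *hH1* library 1.

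**Figure D4:**
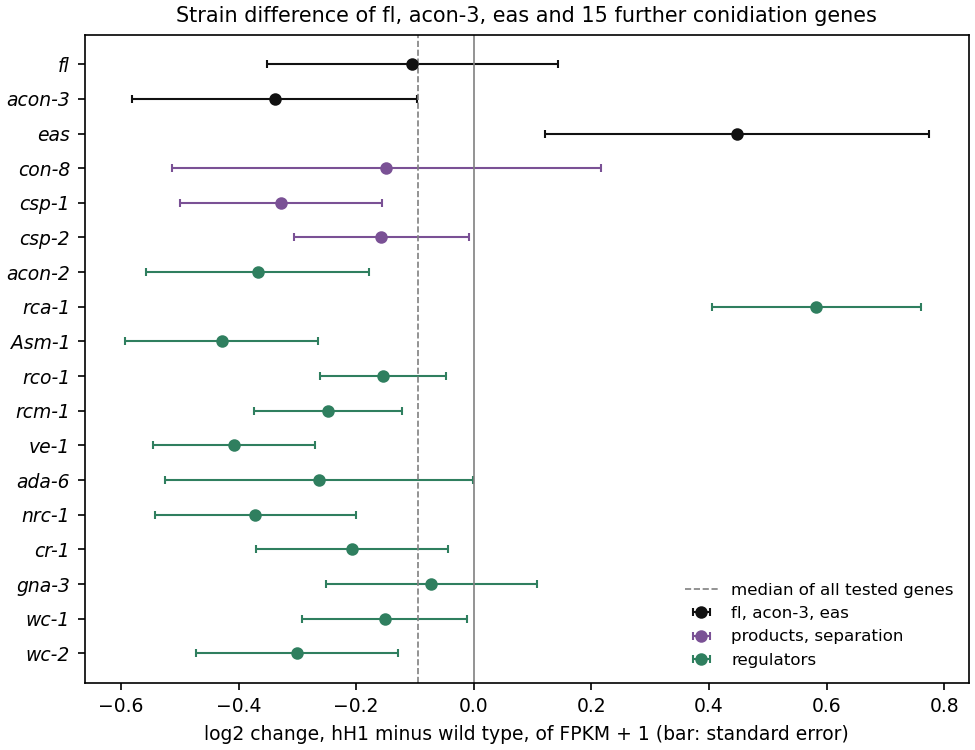
Fitted log2 change of FPKM + 1, *hH1* minus wild type, with its standard error as a bar, for *fl*, *acon-3* and *eas* (black), 3 genes of conidium products and separation (purple) and 12 regulators (green); the dashed line is the median of all 7208 tested genes, -0.095. *eas* (0.45) and *rca-1* (0.58) are the genes to the right of 0.

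Because *eas*, *con-6* and *con-10* are also known to respond to light, light-induced genes that were not in the conidiation lists were examined beside them. All 11 were tested, 1 was called higher in *hH1* (beside 1.73% of all tested genes) and 1 lower (beside 3.26%), 7 were at an unadjusted p under 0.05 (63.6%, beside 25.9% of all tested genes), and in 3 the strains did not overlap (beside 32.3% of all tested genes). The higher one was the blue-light-inducible gene *bli-4*, at 3.13, 3.45 and 9.03 FPKM in the *hH1* libraries, against 0.368, 1.77 and 0.849 FPKM in the wild-type libraries, a log2 change of 1.57 (SE 0.39, limma adjusted p = 0.0477). The lower one was *sub-1*, which encodes a GATA-type factor also needed for normal sexual structures, at 13.4, 13.003 and 19.9 FPKM in the *hH1* libraries, against 25.9, 23.5 and 31.4 FPKM in the wild-type libraries, a log2 change of -0.78 (SE 0.19, limma adjusted p = 0.0422). Neither call was stable, with *bli-4* called in 4 of 13 alternative fits and *sub-1* in 5 of 14, and both were lost, for example, when the filter on low values was dropped or wild-type library 1 was left out.

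Of the 11 light-induced genes, 10 had a positive log2 change, also with centred or quantile-normalized libraries and with the length trend removed, with a median of 0.55 beside -0.095 over all tested genes. The high values came mostly from 1 library: 8 of the 11 genes were highest in *hH1* library 3, and without it the median was 0.33 and 9 genes were positive. In that library *vvd*, which encodes a blue-light receptor of light adaptation, was at 16.2 FPKM, and the carotenoid gene *al-1* at 23.0 FPKM. In *hH1* libraries 1 and 2 *vvd* was at 6.08 and 5.34 FPKM and *al-1* at 2.08 and 4.50 FPKM. In the wild-type libraries *vvd* was at 3.25, 1.65 and 3.59 FPKM and *al-1* at 5.09, 3.94 and 7.82 FPKM. The summed level of the list was 223, 171 and 273 FPKM in the *hH1* libraries, against 156, 184 and 172 FPKM in the wild-type libraries, with *ccg-1* the highest gene at 117, 75.1 and 79.96 FPKM in the *hH1* libraries, against 60.4, 100.9 and 67.1 FPKM in the wild-type libraries. The light that the cultures saw is not given in the sources used here, and its part in these values was not tested.

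**Figure D5:**
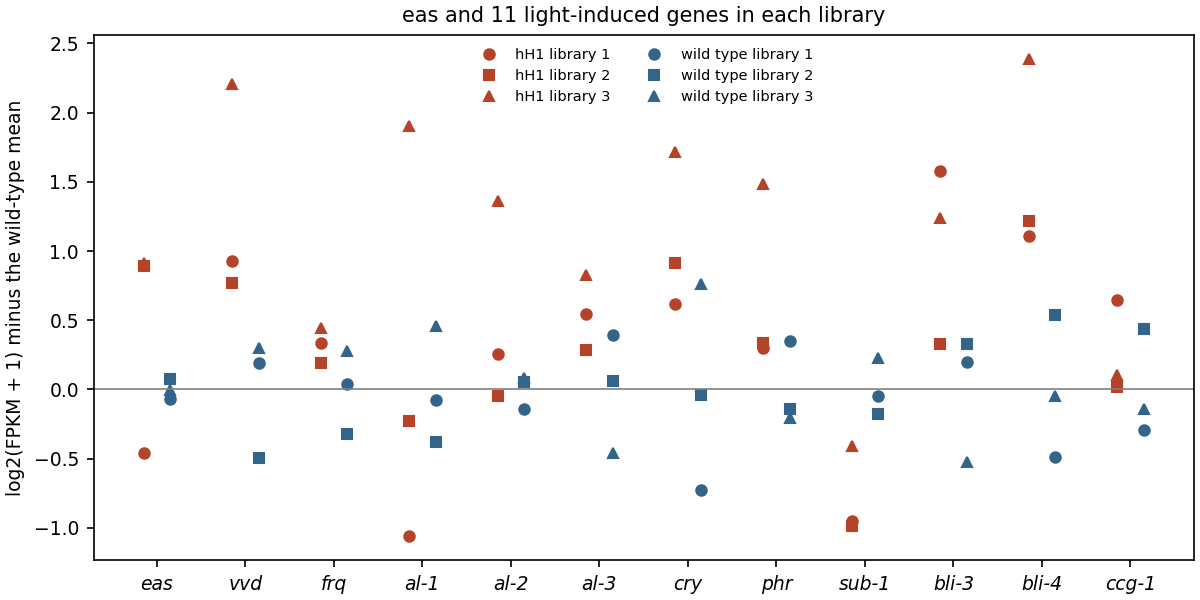
log2(FPKM + 1) of *eas* and of 11 light-induced genes in each library, minus the mean of the 3 wild-type libraries of that gene, with the *hH1* libraries in red left of the wild-type libraries in blue. *hH1* library 3 (red triangles) is the highest point in 8 of the 11 light-induced genes, whereas *eas* is high in both *hH1* library 2 (red square) and *hH1* library 3.

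As markers of other tissue, 8 genes of sexual development were matched, and 4 of them had a mean of under 1 FPKM. Of the 4 tested, 1 was called, lower in *hH1* (beside 3.26% of all tested genes), and 0 higher, and 2 were at an unadjusted p under 0.05 (50.0%, beside 25.9% of all tested genes). All 4 had negative changes with strains that did not overlap (beside 32.3% of all tested genes). After the trend with gene length was removed, 1 of the 4 changes was positive. The called gene was *mfa-1*, a pheromone precursor gene of mating type *a* cells, at 7.43, 2.82 and 2.55 FPKM in the *hH1* libraries, against 303, 103 and 274 FPKM in the wild-type libraries, a log2 change of -5.40 (SE 0.41, limma adjusted p = 0.000127). Without *mfa-1* the summed level of the list was 30.9 to 32.2 FPKM in the *hH1* libraries and 38.6 to 46.6 FPKM in the wild-type libraries. The part of these genes in the values of the conidiation genes was not tested.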

How the data were processed

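The authors aligned the RNA-seq reads to assembly NC12 with TopHat (TopHat2 2.0.14 in the submitters' processing notes) and made the deposited FPKM values per annotated transcript with Cufflinks (Cuffnorm in the notes, version not given in the sources used here). How libraries were scaled, and whether strand was used in counting, is not stated. The table held 10785 transcripts in 6 libraries, replicates kept apart, and 0 columns were left unused. Column names identify the strain, while their numbers differ from those of the labels.

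Transcripts were summed to 9730 genes, of which 9729 were in the RefSeq gene table of NC12 used for names and positions. The test was run on genes whose mean over all 6 libraries reached 1 FPKM, as log2(FPKM + 1) with limma 3.58.1 in R 4.3.3 (lmFit, eBayes with a trend, strain as the only term), two-sided, with Benjamini-Hochberg adjustment over all tested genes and a threshold of 0.05. This scale understates the change of low genes. With 3 against 3 libraries an exact permutation test of a single gene cannot go below 0.1, so none was used.

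Where a gene has 1 transcript, FPKM values are whole multiples of what 1 fragment is worth. The relative depth of the libraries was read from these steps, and 1960 of 1971 low genes (99.44%) then came out as whole numbers in all libraries within 0.01. The smallest whole numbers were taken. Their exact 95% Poisson intervals, and the 3 fragments a count of 0 allows, cover counting error only. The relative depth was read from values under 3 FPKM, and the low genes were under 10 FPKM in every library. The fragments of the 5 genes and of *con-8* were recovered with no upper limit on FPKM. limma and the recovery of fragments were tested on simulated data.

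Genes named besides the 5 were, by rule, *hH1*, of each list those past the threshold (up to 4) and the highest, the neighbours of the 5 genes and the 2 tested genes most like each tested one. 1 gene that this rule names is not reported here. *rca-1*, *vvd*, *al-1* and *matA-1* were named after their values were seen. The 5 genes and all lists were chosen with earlier results of these data known. Alternatives were a pseudocount of 0.1, a minimum of 5 FPKM or none, centred or quantile-normalized libraries, removal of the trend with gene length, no variance trend, robust estimation, transcripts on their own and each library left out; the counts for each list under these were added after the data had been seen. ChIP-seq and MNase-seq samples, and sequences of the genes, were not analysed here. The other steps ran in Python 3.11.15 with scipy 1.17.1, pandas 2.3.3 and numpy 2.4.6, and figures were drawn with matplotlib 3.10.9.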

Additional observations from a re-analysis of the deposited data

How the results depend on the processing

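*acon-3* stayed on its side of zero and uncalled in all 14 of its alternative fits, with log2 changes of -0.53 to -0.18. *eas* stayed positive in all 15, with 0.21 to 0.90 over the fits that left out a library, and passed the threshold only without *hH1* library 1, at 0.90. The log2 change of *fl* was -0.10 and became 4e-04 with centred libraries, 0.045 after quantile normalization and 0.088 with the length trend removed, and lay between -0.27 and 0.035 when a library was left out. No fit called *fl*. Leaving out a library gave -0.53 to -0.21 for *acon-3*, -0.45 to 0.17 for *con-6* and -0.58 to 0.0 for *con-10*, the last pair as plain differences of log2 means. A minimum of 5 FPKM left *eas* as the only one of the 5 genes tested.

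The count of genes called was 360, and it was 188 with no filter, 225 with the length trend removed, 135 without a variance trend, 45 with transcripts on their own and 52 to 372 when a library was left out, lowest without wild-type library 1. Centring moved the median log2 change over all tested genes to 0.01. No paired analysis was possible because the columns of the table carry no replicate number of the labels. *con-6* and *con-10* rest on at most 8 fragments per library, so their strain differences are limited by depth, and the fragments recovered could all be a fixed multiple higher. If the numbers of *fl* alone were doubled at the same depth, its implied transcript would be 6106 bases long, against a gene of 3489 bases. This cannot speak to a multiple shared by all genes, because the depth was estimated from the same recovered numbers.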

Other observations

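Of the 10 genes nearest to the 5 conidiation genes on either side, 6 had a mean of under 1 FPKM. Of these, 4 were listed at 0 in all 6 libraries, which in such a table can be a failed estimate. Of the 4 neighbours that were tested, 0 were called with limma, beside 4.99% of all tested genes. Likewise 0 were at an unadjusted p under 0.05, beside 25.9% of all tested genes. With only 4 genes, these counts do not set the neighbours apart. *con-10* lay between NCU16846 and *con-13*, both listed at 0 in every library, as were NCU07616 before *acon-3* and NCU10730 before *eas*. NCU08724 before *fl* and NCU08770 on the other side of *con-6* were at most at 0.212 and 0.534 FPKM in any library. *con-6* overlaps NCU08768 by 93 bases, and NCU08768 was far higher, at 29.3, 16.7 and 15.4 FPKM in the *hH1* libraries, against 12.2, 21.3 and 20.3 FPKM in the wild-type libraries (log2 change 0.16, limma adjusted p = 0.714). If strand was not used in counting, reads from the shared bases cannot be told apart.

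Next to *fl*, NCU08727 begins 478 bases downstream by coordinate and had a log2 change of 0.17 (limma adjusted p = 0.683). NCU07618, after *acon-3*, was at 6.19, 11.8 and 18.6 FPKM in the *hH1* libraries, against 18.9, 12.2 and 20.2 FPKM in the wild-type libraries, a log2 change of -0.54 (limma adjusted p = 0.310), lowest in *hH1* library 1 as *acon-3* was. NCU08456, 1070 bases after *eas*, had a log2 change of -0.27 (limma adjusted p = 0.464), opposite in sign to *eas*.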
